A study of Mus musculus with 18 samples.

Results

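The genes described here are 10 sensors of RNA and their adaptors: Rigi, Ifih1, Dhx58, Mavs, Tlr3, Tlr7, Eif2ak2, Adar, Trim25 and Myd88. They were taken by name from a table of 41079 genes, and all 10 were found in it. The table holds FPKM values, which are fragment counts scaled by gene length and by library size, from bulk poly(A) RNA of 18 B16F10 melanomas. B16F10 is an established mouse melanoma line, and the tumors grew subcutaneously on the right side of female C57BL/6 mice. From day 6, at a volume of about 50 mm3, the tumors were injected every 2 days, and each of 6 groups gave 3 tumors.

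The PBS group received saline alone, and the NKMOF-101-[Mn] group received the empty framework, a porous solid of manganese ions joined by an organic linker. Free PS473 tumors received a naked ribozyme, a catalytic RNA built to cut the mRNA of PD-L1. PS473@CPs tumors received that RNA on cationic polymers, and PS473@NKMOF-101-[Mn] tumors received it inside the framework. M5@NKMOF-101-[Mn] tumors received a catalytically inactive mutant, M5, inside the same framework. So 4 groups with 12 tumors received ribozyme RNA, and 2 groups with 6 tumors received none. The mice were otherwise alike by their records, and whole tumor tissue was used, so that fewer cells of a type and less RNA per cell cannot be told apart. The records do not link a tumor number to a cage or day, and p-values measure the spread between these tumors.

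Cells read foreign RNA at 2 places. In the cytosol, RIG-I (from Rigi) and MDA5 (from Ifih1) bind double-stranded RNA and signal through MAVS on mitochondria, while in endosomes TLR3 binds double-stranded RNA and TLR7 binds single-stranded RNA. Most of these sensors are themselves induced by type I interferon, the cytokine that they help to switch on, so their mRNA is often read as a mark of that response as well as of the capacity to sense RNA.

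The listed designs of the active and the inactive ribozyme are shown here because RNA of this kind is a possible ligand of the sensors described. The capitals mark the 2 substituted positions, and M5 also ends in bases that this listed PS473 design lacks.

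PS473: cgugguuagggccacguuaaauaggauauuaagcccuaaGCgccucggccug

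M5: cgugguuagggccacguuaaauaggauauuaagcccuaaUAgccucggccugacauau

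Counted from 1 at the 5′ end, the substitutions were G40U and C41A. The listed PS473 design had 52 bases, 12 of them U, and the M5 design had 58 bases, 15 of them U, with 6 more bases at its 3′ end. The longest run of U was 2 bases in both. The PS473 that was injected carried a longer arm for the target than the listed design, and its full sequence was not used here. The study's listing of that longer variant also holds the 6 bases that end M5. The paper describes M5 as having the substrate recognition domain of the injected PS473. The differences in length and in U between the 2 designs shown therefore do not describe the injected RNAs.

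Depth lay between 17212000 and 28401000 fragments per tumor, as recovered from the steps between low FPKM values. Melanocyte markers were high in all tumors, with a score (the mean log2(FPKM + 1) of 7 genes) of 8.30 to 8.90. Cd274, the gene for PD-L1 that PS473 targets, stood at 16.5 ± 4.64 FPKM (SD, n = 3) in PBS, 12.7 ± 1.21 in Free PS473, 16.3 ± 7.10 in PS473@CPs, 14.9 ± 0.945 in the empty framework, 23.7 ± 3.94 in M5@NKMOF-101-[Mn] and 19.9 ± 11.9 in PS473@NKMOF-101-[Mn], and it did not pass the test in any contrast. Skin epithelium markers varied widely inside every group, from a score of 0 to 7.01 over the 18 tumors, and each of the 8 genes of that list found in the table was at 0 in 2 to 9 tumors. Genes of T cells, NK cells and B cells all had a mean under 1 FPKM.

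Across the 18 tumors the 10 genes differed 39.9-fold in mean level, a comparison that FPKM allows because it is per length. Adar had the highest mean (10.9 FPKM), followed by Mavs (9.41), Myd88 (8.08), Dhx58 (7.26), Trim25 (6.73), Eif2ak2 (6.23), Rigi (5.36), Ifih1 (4.13), Tlr3 (3.08) and Tlr7 (0.272). Spread had another order. The coefficient of variation over the tumors was 54.5% for Dhx58, 52.2% for Tlr7, 45.8% for Rigi and 41.7% for Ifih1, against 20.3% for Adar and 12.8% for Mavs. The 3 RIG-I-like receptors were therefore the most variable of the genes above 1 FPKM. Mavs, which encodes the adaptor of RIG-I and MDA5, was the least variable.

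**Figure D1:**
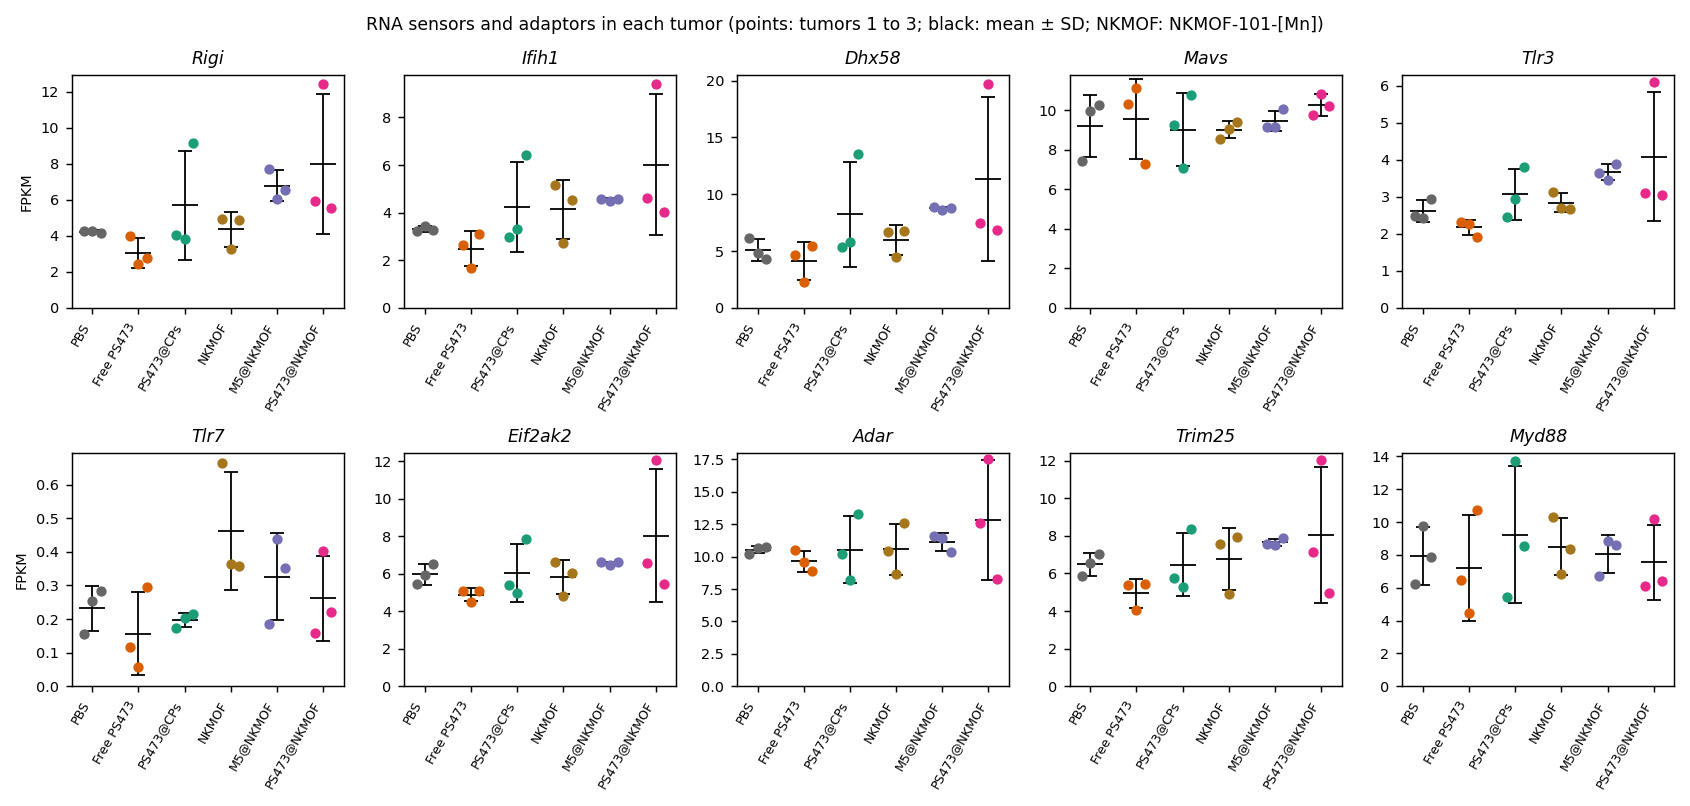
FPKM of each gene (vertical axis, starting at 0 and scaled for each gene) in the 6 groups (horizontal axis), with 1 point per tumor in the order of tumor number and the mean ± SD in black. Tumor 2 of PS473@NKMOF-101-[Mn] is the highest of 18 for 7 genes (12.5 FPKM for Rigi, 19.7 for Dhx58), and the M5@NKMOF-101-[Mn] tumors lie close together (8.61 to 8.90 for Dhx58).

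Rigi encodes RIG-I, which binds short double-stranded RNA with a 5′ triphosphate. It stood at 4.29, 4.27 and 4.14 FPKM in the PBS tumors and at 4.93, 3.26 and 4.89 in the empty framework tumors. With RNA it stood at 4.01, 2.45 and 2.76 in Free PS473, 4.07, 3.85 and 9.16 in PS473@CPs, 7.74, 6.07 and 6.55 in M5@NKMOF-101-[Mn], and 5.95, 12.5 and 5.55 in PS473@NKMOF-101-[Mn]. Every tumor with RNA in the framework lay above every PBS and every empty framework tumor, whereas every Free PS473 tumor lay below every PBS tumor.

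Ifih1 encodes MDA5, which binds long double-stranded RNA. Its values were 3.24, 3.44 and 3.26 FPKM in PBS, 5.14, 2.75 and 4.54 in the empty framework and 2.65, 1.69 and 3.12 in Free PS473. They were 2.97, 3.33 and 6.42 in PS473@CPs, 4.59, 4.51 and 4.57 in M5@NKMOF-101-[Mn], and 4.63, 9.41 and 4.03 in PS473@NKMOF-101-[Mn]. Both framework groups with RNA lay wholly above PBS but overlapped the empty framework.

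Dhx58 encodes LGP2, a helicase without signaling domains that tunes RIG-I and MDA5. The PBS tumors had 6.18, 4.81 and 4.29 FPKM, the empty framework tumors 6.66, 4.45 and 6.79, and the Free PS473 tumors 4.64, 2.25 and 5.48. PS473@CPs had 5.35, 5.83 and 13.6, M5@NKMOF-101-[Mn] 8.90, 8.61 and 8.79, and PS473@NKMOF-101-[Mn] 7.48, 19.7 and 6.86. The M5 and PS473 framework groups did not overlap PBS or the empty framework, but their spreads differed, with an SD of 0.150 FPKM for M5 and 7.22 for PS473.

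Trim25, a ubiquitin ligase known as an activator of RIG-I, was at 5.84, 6.56 and 7.02 FPKM in PBS, 7.54, 4.90 and 7.92 in the empty framework, and 5.39, 4.06 and 5.41 in Free PS473. It was at 5.75, 5.28 and 8.38 in PS473@CPs, 7.55, 7.52 and 7.87 in M5@NKMOF-101-[Mn], and 7.14, 12.0 and 4.93 in PS473@NKMOF-101-[Mn]. Here the PS473 framework group overlapped both control groups, and M5@NKMOF-101-[Mn] lay above PBS alone.

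Mavs, the mitochondrial adaptor of RIG-I and MDA5, showed no such pattern. Its values were 7.40, 9.96 and 10.3 FPKM in PBS, 8.56, 9.07 and 9.39 in the empty framework, and 10.3, 11.1 and 7.28 in Free PS473. They were 9.24, 7.07 and 10.7 in PS473@CPs, 9.15, 9.13 and 10.0 in M5@NKMOF-101-[Mn], and 9.74, 10.8 and 10.2 in PS473@NKMOF-101-[Mn]. The PS473 framework tumors lay above the empty framework tumors by a small margin (9.74 against 9.39 at the nearest), and all groups overlapped PBS.

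Tlr3, the endosomal receptor for double-stranded RNA, had 2.49, 2.43 and 2.95 FPKM in PBS, 3.14, 2.71 and 2.68 in the empty framework, and 2.32, 2.28 and 1.93 in Free PS473. It had 2.46, 2.95 and 3.82 in PS473@CPs, 3.65, 3.46 and 3.89 in M5@NKMOF-101-[Mn], and 3.10, 6.10 and 3.05 in PS473@NKMOF-101-[Mn]. Free PS473 lay below all other groups, and M5@NKMOF-101-[Mn] lay above both control groups.

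Tlr7, which recognizes single-stranded RNA rich in uridine and guanosine, was low in every tumor and had the lowest mean of these genes. It stood at 0.157, 0.254 and 0.285 FPKM in PBS, 0.663, 0.364 and 0.356 in the empty framework, and 0.116, 0.0581 and 0.294 in Free PS473. It stood at 0.174, 0.204 and 0.216 in PS473@CPs, 0.186, 0.439 and 0.352 in M5@NKMOF-101-[Mn], and 0.160, 0.403 and 0.221 in PS473@NKMOF-101-[Mn]. These levels correspond to 14 to 127 fragments per tumor (median 50), and no tumor with RNA exceeded every tumor without it.

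Myd88, the adaptor of TLR7 and of most other Toll-like and IL-1 family receptors but not of TLR3, stood at 6.22, 9.74 and 7.89 FPKM in PBS, 10.3, 6.83 and 8.38 in the empty framework, and 6.45, 4.45 and 10.7 in Free PS473. It stood at 5.45, 13.7 and 8.53 in PS473@CPs, 6.73, 8.84 and 8.58 in M5@NKMOF-101-[Mn], and 6.09, 10.2 and 6.40 in PS473@NKMOF-101-[Mn]. All 6 groups overlapped.

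Eif2ak2 encodes PKR, which binds double-stranded RNA and stops translation by phosphorylating eIF2alpha. It had 5.44, 5.96 and 6.51 FPKM in PBS, 6.61, 4.82 and 6.07 in the empty framework, and 5.10, 4.48 and 5.08 in Free PS473. It had 5.40, 4.97 and 7.84 in PS473@CPs, 6.63, 6.50 and 6.62 in M5@NKMOF-101-[Mn], and 6.56, 12.1 and 5.47 in PS473@NKMOF-101-[Mn]. Free PS473 lay below PBS and below both groups with RNA in the framework, and those 2 groups overlapped the controls.

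Adar encodes the enzyme that edits adenosine to inosine in double-stranded RNA and so hides self RNA from MDA5 and PKR. Its values were 10.2, 10.7 and 10.7 FPKM in PBS, 10.4, 8.64 and 12.6 in the empty framework, and 10.5, 9.59 and 8.85 in Free PS473. They were 10.2, 8.19 and 13.3 in PS473@CPs, 11.6, 11.4 and 10.3 in M5@NKMOF-101-[Mn], and 12.6, 17.5 and 8.28 in PS473@NKMOF-101-[Mn], with overlap between all groups.

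For Rigi, Ifih1, Dhx58, Tlr3, Eif2ak2, Adar and Trim25 the order of the group means began with PS473@NKMOF-101-[Mn], then M5@NKMOF-101-[Mn], and ended with Free PS473. For Rigi the means were 7.99 ± 3.88 FPKM (SD, n = 3), 6.79 ± 0.857, 5.70 ± 3.00 in PS473@CPs, 4.36 ± 0.951 in the empty framework, 4.23 ± 0.0825 in PBS and 3.07 ± 0.826 in Free PS473. Neighbors in that order overlapped, except PBS and Free PS473 for Rigi, Ifih1 and Tlr3. The order departed from this for Mavs, with Free PS473 second, for Tlr7, with the empty framework first (0.461 ± 0.175 FPKM), and for Myd88, with PS473@CPs first (9.24 ± 4.18).

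Differences between groups were then tested with limma on log2(FPKM + 1) over the 12357 genes whose mean reached 1 FPKM, in 13 contrasts that share groups and so are not independent. A gene was called at an adjusted p under 0.05 and a change of more than 2-fold. None of the 9 members tested was called in any contrast, and 0 of the 12357 genes were (0%). Tlr7 was below the filter and was fitted among the 18312 genes whose mean reached 0.1 FPKM. Because no gene was called, the members' fitted differences are given as log2 fold changes with standard errors (SE). Counts at an unadjusted p under 0.05 are set beside the share of all genes that reached it. Most members varied together from tumor to tumor, as described below, so a count of members is not a count of independent results.

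The first question was whether ribozyme RNA of any kind went with higher sensor mRNA. It did not pass the test for any member. The mean of the 4 groups with RNA against the mean of PBS and empty framework gave a log2 fold change of 0.35 ± 0.23 (SE) for Dhx58, 0.28 ± 0.18 for Rigi, 0.15 ± 0.11 for Tlr3, 0.11 ± 0.17 for Ifih1, 0.07 ± 0.13 for Eif2ak2, 0.06 ± 0.09 for Mavs and 0.04 ± 0.13 for Adar. Myd88 had -0.07 ± 0.19 and Trim25 a value of -0.00 ± 0.14. At an unadjusted p under 0.05 there were 0 members, beside 157 genes (1.27% of those tested), and the members' median was 0.07 against -0.01 for all genes. The 95% intervals ran from -0.10 to 0.66 for Rigi and from -0.13 to 0.83 for Dhx58, so that a true difference within those limits was not excluded. The pooled RNA groups were spread on both sides of the controls: for Rigi 7 of 12 tumors with RNA lay above every tumor without it and 2 lay below, and for Dhx58 7 lay above and 1 below. Of the 8 leukocyte and macrophage genes, 3 were lower with RNA at an unadjusted p under 0.05 (Mrc1 -0.93 ± 0.39, Csf1r -0.61 ± 0.28 and Adgre1 -0.57 ± 0.26). The mean score of that list was high in 1 control group, the empty framework (4.12), and was 3.29 in PBS. With RNA it lay on both sides of PBS, at 2.95 in Free PS473, 3.32 in PS473@CPs, 3.57 in M5@NKMOF-101-[Mn] and 3.15 in PS473@NKMOF-101-[Mn]. With the score of that list as a covariate, added after the data were seen, Dhx58 had 0.55 and Myd88 0.23. Both were under an unadjusted p of 0.05 in that limma fit, beside 1.32% of all genes. With the skin epithelium score as the covariate, also added later, no member was under 0.05. Dhx58 then had 0.41 (unadjusted p = 0.0986) and Myd88 0.11 (0.356) in the limma fit.

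**Figure D2:**
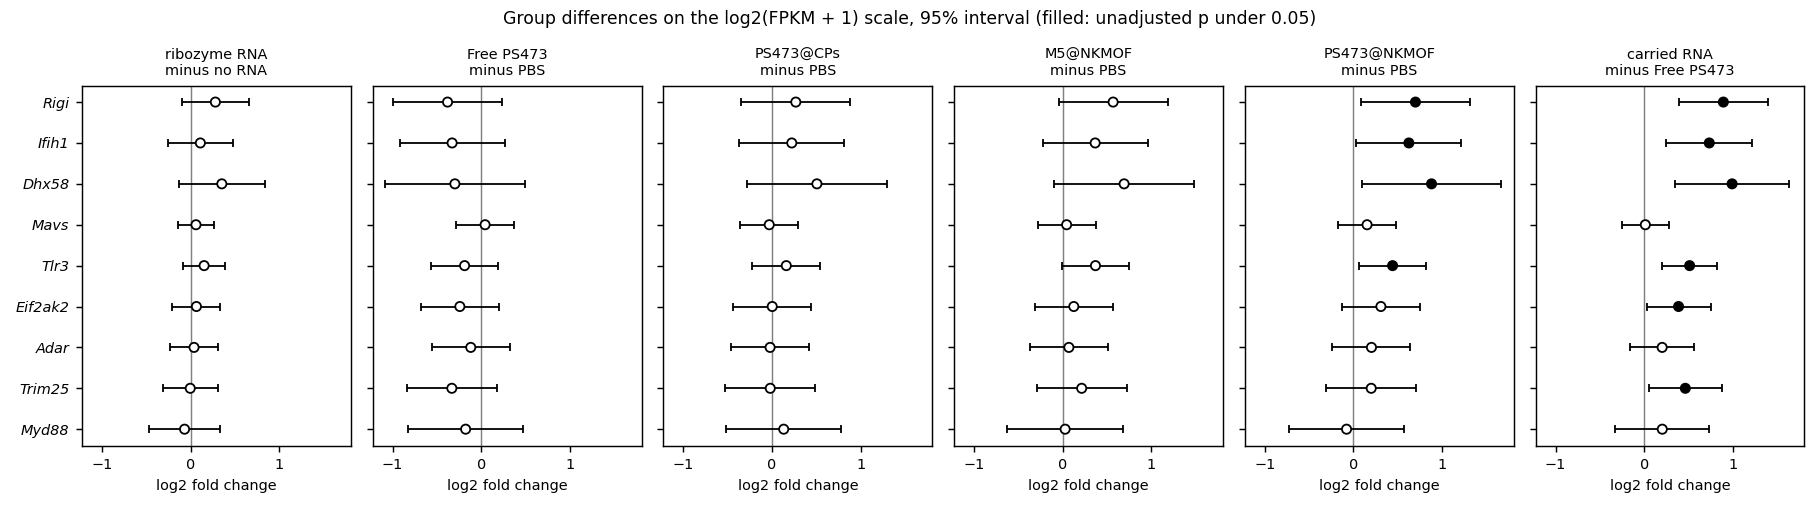
Log2 fold change on the log2(FPKM + 1) scale (horizontal axis) with its 95% interval for the 9 members tested (vertical axis) in 6 contrasts, filled where the unadjusted p is under 0.05. Filled points are 0 for RNA against no RNA, 4 for PS473@NKMOF-101-[Mn] against PBS and 6 for carried RNA against Free PS473, and no adjusted p is under 0.05.

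The 2 framework groups with RNA held the 2 highest group means for the 7 members named above, but not for Mavs, Tlr7 or Myd88. PS473@NKMOF-101-[Mn] against PBS gave a log2 fold change of 0.88 ± 0.37 for Dhx58 (unadjusted p = 0.0311), 0.70 ± 0.29 for Rigi (0.0286), 0.62 ± 0.28 for Ifih1 (0.0402) and 0.44 ± 0.18 for Tlr3 (0.0264) in the limma fit, each with an adjusted p of 0.993. These 4 members of 9 stood beside 260 of 12357 genes, or 2.10%. The same 4 were higher in all 3 tumors of that group than in any PBS tumor, as were 2.74% of all genes. Trim25 (0.20 ± 0.24), Eif2ak2 (0.31 ± 0.21), Adar (0.20 ± 0.21) and Mavs (0.15 ± 0.15) had smaller positive values, and Myd88 had -0.08 ± 0.30.

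These differences leaned on single tumors. Without tumor 2 of PS473@NKMOF-101-[Mn] the count of members at an unadjusted p under 0.05 was 0 (4.45% of all genes reached it in that fit), and the log2 fold change of Rigi was 0.37 and that of Dhx58 0.43. Without tumor 2 of PBS the count was also 0 (1.33%), without tumor 1 of PBS it was 1 (5.40%), without tumor 3 of PBS it was 1 (3.54%), and without tumor 3 of PS473@NKMOF-101-[Mn] it was 6 (1.96%). In a fit of these 2 groups alone it was 1, Rigi, beside 1.33% of all genes. Tumor 2 of PS473@NKMOF-101-[Mn] also had the highest T and NK cell score of the 18 tumors (0.757), a skin epithelium score of 4.06 where the other tumors of its group had 0.0482 and 0.898, and the highest score of interferon-stimulated genes (4.71). The part of these in the result was not tested. With the skin epithelium score as a covariate, the log2 fold changes were 0.75 for Rigi and 0.98 for Dhx58, and with the leukocyte and macrophage score they were 0.72 and 0.94.

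M5@NKMOF-101-[Mn] against PBS gave 0.69 ± 0.37 for Dhx58 (unadjusted p = 0.0810), 0.57 ± 0.29 for Rigi (0.0677), 0.37 ± 0.18 for Tlr3 (0.0570) and 0.37 ± 0.28 for Ifih1 (0.208) in the limma fit, with an adjusted p of 0.999 for each. No member reached an unadjusted p under 0.05 in the fit of all groups, where 1.51% of genes did. All 3 M5 tumors lay above all 3 PBS tumors for 5 of 9 members (Rigi, Ifih1, Dhx58, Tlr3 and Trim25), beside 4.75% of all genes. These 5 varied together over the tumors and are not 5 separate results. When the 2 groups were fitted alone, with their own and smaller spread, 4 members reached an unadjusted p under 0.05 (Rigi, Dhx58, Ifih1 and Tlr3), beside 3.88% of all genes.

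Against the empty framework, PS473@NKMOF-101-[Mn] gave 0.68 ± 0.29 for Rigi (unadjusted p = 0.0324, adjusted p = 0.999 in the limma fit), the 1 member under 0.05 beside 2.30% of all genes, with 0.69 ± 0.37 for Dhx58, 0.40 ± 0.28 for Ifih1 and 0.35 ± 0.18 for Tlr3. Rigi, Dhx58 and Mavs lay above the empty framework in every tumor of that group, as did 2.41% of all genes. M5@NKMOF-101-[Mn] gave 0.55 ± 0.29 for Rigi, 0.51 ± 0.37 for Dhx58 and 0.28 ± 0.18 for Tlr3, with 0 members under 0.05 beside 3.07% of genes. Those 3 were also the members above the empty framework in every M5 tumor, beside 4.47% of genes, and the same 3 were under 0.05 when the 2 groups were fitted alone, beside 8.77% of genes.

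Differences between the empty framework and PBS were small beside their errors. NKMOF-101-[Mn] against PBS gave 0.22 ± 0.28 for Ifih1, 0.19 ± 0.37 for Dhx58, 0.09 ± 0.18 for Tlr3 and 0.02 ± 0.29 for Rigi, and 0 members were under an unadjusted p of 0.05 beside 1.46% of genes. The interval for Rigi ran from -0.60 to 0.63. Tlr7 was the exception among the members, with 0.24 ± 0.11 (unadjusted p = 0.0383, adjusted p = 1 in the limma fit with the lower filter, in which 2.11% of genes were under 0.05). Tlr7 was also lower than the empty framework in Free PS473 (-0.34 ± 0.11, unadjusted p = 0.00649, beside 3.96% of genes) and in PS473@CPs (-0.28 ± 0.11, unadjusted p = 0.0187, beside 2.10% of genes), again with an adjusted p of 1. The leukocyte and macrophage score was 3.65 to 4.62 in the empty framework, 2.83 to 3.64 in PBS, 2.11 to 4.07 in Free PS473 and 2.98 to 3.65 in PS473@CPs. All 8 genes of that list, among them Cd68, C1qa and C1qb, had a mean above 1 FPKM. The part of leukocyte content in the Tlr7 values was not tested.

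Naked PS473 and PS473 on polymers gave none of the 9 members tested an unadjusted p under 0.05 against either control in the fit of all groups. Free PS473 against PBS gave -0.38 ± 0.29 for Rigi, -0.33 ± 0.24 for Trim25, -0.33 ± 0.28 for Ifih1, -0.30 ± 0.37 for Dhx58, -0.24 ± 0.21 for Eif2ak2 and -0.19 ± 0.18 for Tlr3, with 0 members under an unadjusted p of 0.05 beside 1.81% of genes. Of 9 members, 5 (Rigi, Ifih1, Tlr3, Eif2ak2 and Trim25) lay below PBS in every Free PS473 tumor, as did 1.54% of all genes. Against the empty framework 0 members of 9 were under 0.05 (3.08% of genes), and Tlr3 lay below it in every tumor (3.99% of genes). PS473@CPs against PBS gave 0.51 ± 0.37 for Dhx58, 0.27 ± 0.29 for Rigi and 0.22 ± 0.28 for Ifih1, where 1 tumor of 3 was high. There were 0 members under 0.05 (2.09% of genes), 0 above PBS in every tumor (1.93% of genes) and 0 under 0.05 against the empty framework (1.71% of genes).

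The clearest contrast among the RNA groups was between carried and naked RNA. The mean of the polymer group and both framework groups with RNA against Free PS473 gave log2 fold changes of 0.99 ± 0.30 for Dhx58, 0.89 ± 0.23 for Rigi, 0.73 ± 0.23 for Ifih1, 0.51 ± 0.15 for Tlr3, 0.46 ± 0.19 for Trim25 and 0.39 ± 0.17 for Eif2ak2. All 6 were under an unadjusted p of 0.05, between 0.00182 for Rigi and 0.0372 for Eif2ak2, beside 796 of 12357 genes or 6.44%. Their adjusted p lay between 0.396 and 0.751 in the limma fit, so that none was called. Eif2ak2 was past 0.05 with the 4 groups fitted alone (unadjusted p = 0.0635 in that limma fit) and with the skin epithelium covariate (0.0512), and Eif2ak2 (0.0838) and Trim25 (0.0699) were past it with the leukocyte covariate. Adar (0.20 ± 0.17), Myd88 (0.20 ± 0.25) and Mavs (0.01 ± 0.13) were not under 0.05. This contrast joins a mutant RNA and 2 carriers, and it used the group with the lowest means as its reference. Both framework groups also received manganese, and none of these tumors received the polymer alone. Carriage of the RNA and the carrier material therefore cannot be told apart in this contrast, which leaves out the empty framework.

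All tumors with PS473 in the framework exceeded all Free PS473 tumors for 5 members (Rigi, Ifih1, Dhx58, Tlr3 and Eif2ak2), beside 2.34% of all genes, and every M5@NKMOF-101-[Mn] tumor did so for those 5 and Trim25, beside 5.36%. PS473@CPs lay wholly above Free PS473 for 1 member, Tlr3, beside 1.80% of genes. Tumor 2 of Free PS473 was the lowest of the 18 for 7 of the 10 members, with 2.45 FPKM for Rigi and 2.25 for Dhx58. It also had the lowest leukocyte and macrophage score (2.11), T and NK cell score (0.0768) and score of interferon-stimulated genes (2.43), and their part in the result was not tested. Without it, 2 members stayed under an unadjusted p of 0.05 (Rigi and Tlr3), where 7.70% of all genes did. Without tumor 3 of PS473@CPs the count was 4, beside 5.18%. Over all 18 fits that leave out 1 tumor, Rigi ranged from 0.78 to 1.05 and Dhx58 from 0.69 to 1.19.

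Active and inactive ribozyme in the same framework could not be told apart by any member. PS473@NKMOF-101-[Mn] minus M5@NKMOF-101-[Mn] gave 0.26 for Ifih1 with a 95% interval of -0.33 to 0.85, 0.19 for Dhx58 (-0.60 to 0.98), 0.18 for Eif2ak2 (-0.26 to 0.63), 0.13 for Rigi (-0.48 to 0.75), 0.13 for Adar (-0.31 to 0.57), 0.11 for Mavs (-0.22 to 0.44), 0.07 for Tlr3 (-0.31 to 0.45), -0.01 for Trim25 (-0.52 to 0.49) and -0.10 for Myd88 (-0.76 to 0.55). There were 0 members under an unadjusted p of 0.05, beside 0.591% of genes, and no member separated the 2 groups. The intervals are wide, and equality is not shown. The median of the 3 tumors was higher with M5 for Rigi (6.55 against 5.95 FPKM) and Dhx58 (8.79 against 7.48), although the mean was higher with PS473.

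The difference that PS473 made in the framework was compared with the difference that it made when naked, as an interaction. It was 1.06 ± 0.41 for Rigi (unadjusted p = 0.0201), 0.99 ± 0.52 for Dhx58 (0.0772), 0.73 ± 0.39 for Ifih1 (0.0820), 0.59 ± 0.29 for Eif2ak2 (0.0645) and 0.54 ± 0.25 for Tlr3 (0.0485) in the limma fit. Rigi and Tlr3 were under 0.05, beside 2.68% of all genes, and each had an adjusted p of 1.00. The count was 0 without tumor 2 of PS473@NKMOF-101-[Mn] (3.59% of all genes) or without tumor 2 of the empty framework (2.57%), 4 without tumor 1 of PS473@NKMOF-101-[Mn] (4.21%) and 7 without its tumor 3 (3.00%).

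There were 7 members that varied together from tumor to tumor. The 21 pairs among Rigi, Ifih1, Dhx58, Eif2ak2, Adar, Trim25 and Tlr3, a set chosen after their values were seen, had a Pearson r of log2(FPKM + 1) between 0.69 and 0.96 over the 18 tumors (median 0.87) and a Spearman rho between 0.51 and 0.93. After the group means were taken out, r was 0.68 to 0.96, and without tumor 2 of PS473@NKMOF-101-[Mn] it was 0.41 to 0.94 (n = 17). The closest pairs were Ifih1 with Dhx58 (r = 0.96) and Eif2ak2 with Trim25 (r = 0.94). Mavs stood outside this set, with an r of 0.13 to 0.47 to its 7 genes, as did Myd88 (0.07 to 0.46) and Tlr7 (0.19 to 0.52). These values describe tumors that share their groups and library preparation and carry no test.

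**Figure D3:**
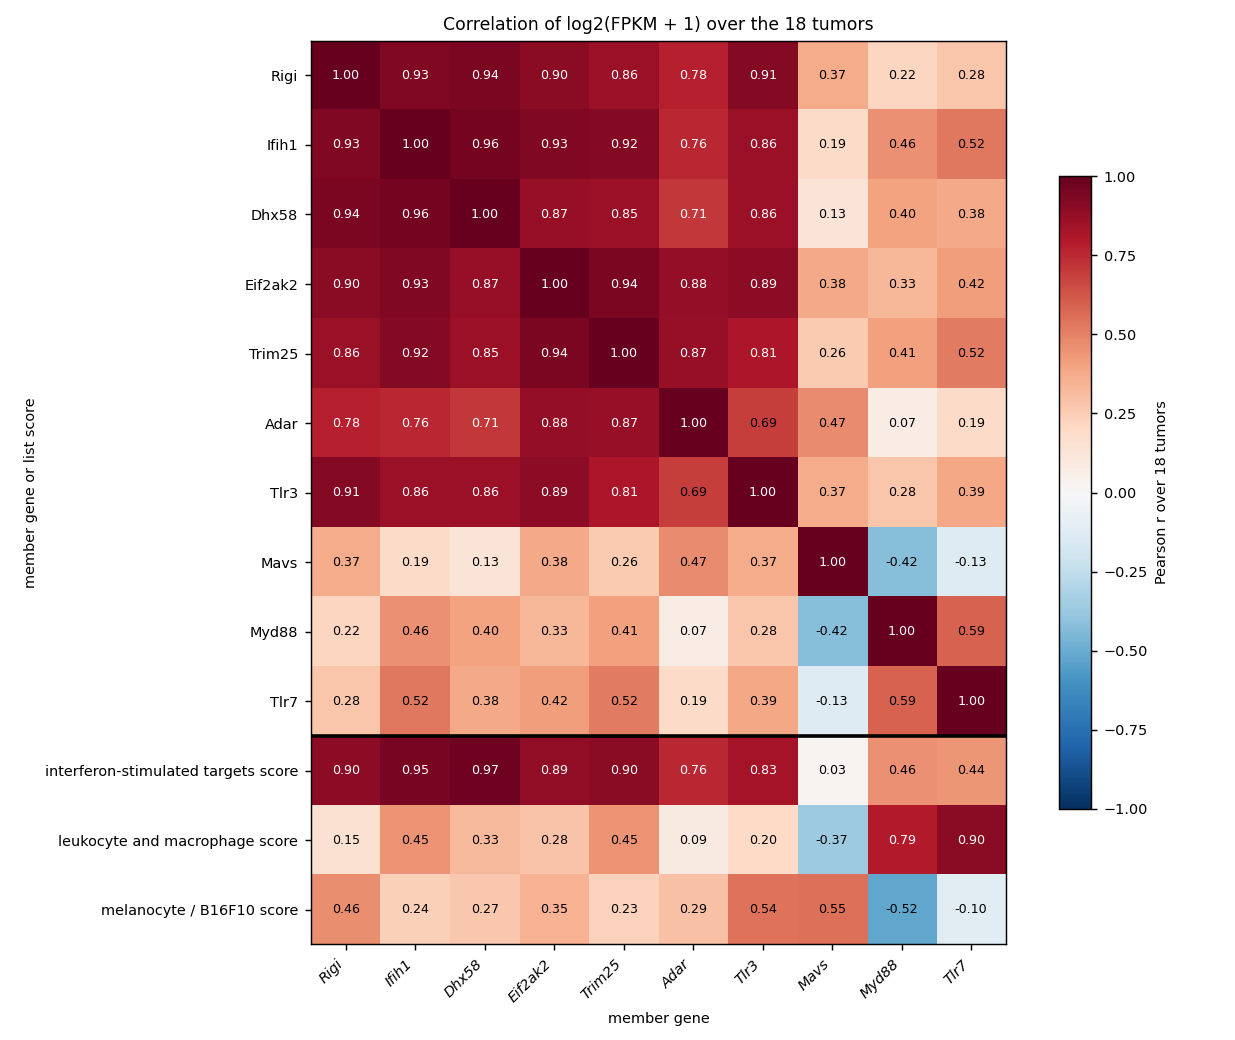
Pearson r of log2(FPKM + 1) over the 18 tumors (color, from -1 to 1) between the 10 genes and, below the line, between each gene and the mean score of 3 lists. The 7 genes form a block with r from 0.69 to 0.96 and follow the interferon-stimulated score (0.76 to 0.97), while Tlr7 and Myd88 follow the leukocyte and macrophage score (0.90 and 0.79). Myd88 had a higher r with the fibroblast (0.84) and skin epithelium (0.81) scores, which are not drawn.

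The genes with the most similar pattern to each member were read from all 12357 genes. Those of Rigi were Usp18 (r = 0.95), Ifit3, Dhx58, Cmpk2 and Ifit3b. Those of Ifih1 were Parp10 (0.97), Oasl2, Cmpk2, Dhx58 and Sp100, and those of Dhx58 were Ifit3 (0.98), Ifit3b, Parp10, Sp100 and Usp18. Many of these names are known as interferon-induced genes. Trim25 was closest to Parp14 (0.95), Eif2ak2, Lgals3bp, Cmpk2 and Ddx60. Eif2ak2 was closest to the pseudogene Gm6548 (0.96), Oas3, Trim25, Slfn8 and Cmpk2, and Adar to A930037H05Rik (0.96), Rnf213, Zc3hav1, Rnf31 and Atxn7l1.

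Tlr3 was most like Trim30a (r = 0.93), Tor3a, Sting1, Rigi and Gbp10. Tlr7 was most like Cybb (0.95), Fyb1, Ly9, Myo1f and Dock2, of which Cybb encodes a subunit of the phagocyte oxidase and Dock2 a regulator of leukocyte migration. Myd88 was most like Ptk2b (0.95), Bcl3, Ms4a6d, Nucb2 and Ctsh. Mavs was most like Cox15 (0.92), an enzyme of heme A synthesis in mitochondria, followed by Zc3h7b, Tbc1d5, Cilk1 and Exoc4.

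**Figure D4:**
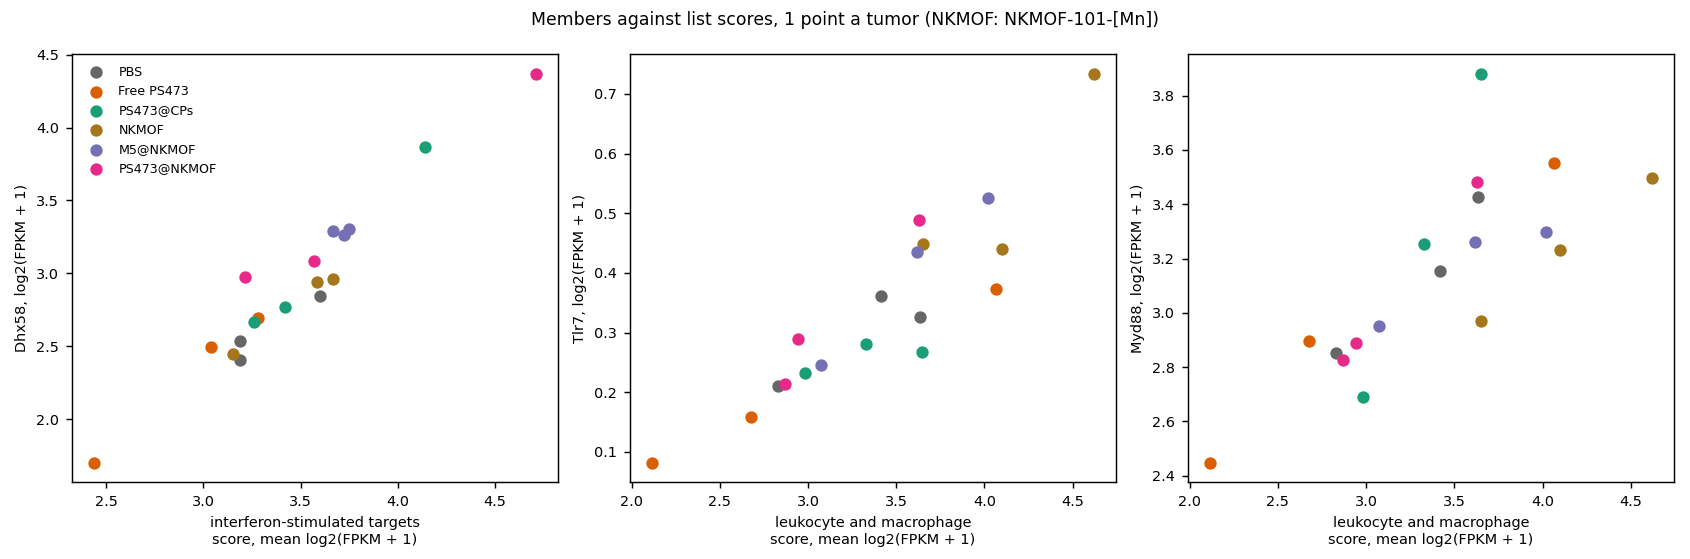
Log2(FPKM + 1) of Dhx58, Tlr7 and Myd88 (vertical axes) against the mean log2(FPKM + 1) of a gene list (horizontal axes), 1 point per tumor, colored by group. Dhx58 follows the interferon-stimulated score (r = 0.97 over 18 tumors), and Tlr7 and Myd88 follow the leukocyte and macrophage score (r = 0.90 and 0.79). For Myd88 the r was higher with the fibroblast (0.84) and skin epithelium (0.81) scores, which are not drawn.

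A score of 20 interferon-stimulated genes that holds none of the members, among them Isg15, Ifit1, Mx1 and Oasl2, followed Dhx58 (r = 0.97, rho = 0.93), Ifih1 (0.95), Trim25 and Rigi (both 0.90) over the 18 tumors. Without the 2 tumors farthest from the median score, r was 0.92 for Dhx58 and 0.80 for Rigi. Tlr7 followed the leukocyte and macrophage score instead (r = 0.90, rho = 0.87, and r = 0.83 without the 2 tumors farthest from the median), and so did Myd88 (r = 0.79, rho = 0.81, and r = 0.72). Myd88 had a higher r with the fibroblast score (r = 0.84, and r = 0.81 without 2 tumors) and with the skin epithelium score (r = 0.81 over the 18 tumors). Its r was 0.74 with the T and NK cell score, 0.69 with neutrophil, 0.67 with endothelium and -0.52 with melanocyte markers. The tumor with the highest Myd88, tumor 2 of PS473@CPs at 13.7 FPKM, had the highest skin epithelium score (7.01). Of 6 listed genes of plasmacytoid dendritic cells, the cell type best known for TLR7, the means were 0.0638 FPKM for Siglech, 0.0827 for Ccr9, 0.0979 for Klk1, 0.260 for Pacsin1, 1.23 for Clec4b1 and 235 for Bst2, which is also one of the interferon-stimulated targets.

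The start sites of the members were then searched for the core of the interferon-stimulated response element, the site through which interferon acts on its target genes, because 7 members varied together. RefSeq windows of 300 bases on mouse build GRCm38.p6, from 250 bases before to 50 after the start, were found for 8 members in 10 windows, 3 of them for Adar. Dhx58 and Tlr7 had no window. This core, read as GAAA repeated after a gap of 2 free bases on either strand, was present for 4 of the 8 members, and in 3.44% of all 32851 windows. Their 28 or 30 bases around the match are shown on the strand of the gene, with the match in capitals.

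Ifih1: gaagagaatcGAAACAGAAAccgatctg

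Rigi: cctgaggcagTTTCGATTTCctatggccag

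Myd88: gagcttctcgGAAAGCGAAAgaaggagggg

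Eif2ak2: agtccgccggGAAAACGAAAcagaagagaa

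These lie at chr2:62646206-62646233 for Ifih1, chr4:40239804-40239833 for Rigi (listed there as Ddx58), chr9:119340039-119340068 for Myd88 and chr17:78882535-78882564 for Eif2ak2, all on the minus strand of GRCm38.p6. The match began 40 bases upstream of the annotated start for Myd88, and 32, 2 and 18 bases downstream of it for Ifih1, Rigi and Eif2ak2. The shorter GAAANNGAA, which lies within every longer match, was also present in Trim25 and in 1 of the 3 Adar windows, for 6 members in all and 8.56% of all windows. TTCNNNGAA, the core of the gamma-activated site, was present for 3 members (Adar, Myd88 and Eif2ak2) and in 8.30% of windows. Myd88, which lay outside the set of 7, held both elements, and Tlr3, which lay inside it, held neither in its window.

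Genes of the wider pathway, in lists chosen with earlier results of these data known, gave 0 calls in every contrast. Of 22 tested kinases and transcription factors downstream of the sensors, 1 was under an unadjusted p of 0.05 for RNA against no RNA (Chuk, a kinase of the NF-kB pathway, at -0.14 ± 0.06), and the list's median log2 fold change was 0.01 against -0.01 for all genes. Irak1, a kinase of the MyD88 pathway, had the highest mean (19.4 FPKM), followed by Fadd (15.2), an adaptor also used in cell death. Irf7, the factor that amplifies interferon transcription, differed most, with 0.40 ± 0.32, and ranged from 1.70 to 34.8 FPKM over the tumors, while Fadd had 0.18 ± 0.09. Among 14 tested regulators and partners of RIG-I-like receptors, 0 were under 0.05 and the median was 0.01. Ppp1ca (237 FPKM), the catalytic subunit of a phosphatase, and Ywhae (157 FPKM), a chaperone of RIG-I, were the highest, with 0.01 ± 0.12 and -0.00 ± 0.08. Rnf135, the ubiquitin ligase Riplet that activates RIG-I, differed most (0.20 ± 0.10), followed by Otud5 (0.07 ± 0.04).

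The 10 tested genes for the trafficking and ligand supply of endosomal Toll-like receptors had a median of -0.04 and 0 under 0.05. Hsp90b1, the chaperone of Toll-like receptors, had 318 FPKM and -0.07 ± 0.07, and the RNase genes Rnaset2b and Rnaset2a, whose product prepares RNA for TLR7 and TLR8, had 0.22 ± 0.15 and 0.23 ± 0.12. These 2 are near-identical copies, and the split of reads between them is uncertain. Cd14, a co-receptor, had the largest difference in the list (-0.24 ± 0.37). Tlr8 and Tlr9 had means of 0.448 and 0.557 FPKM, under the filter. Of 12 genes around PKR and ADAR, Atf4 (133 FPKM), the factor translated when eIF2alpha is phosphorylated, had -0.17 ± 0.09, Ppp1r15a had -0.15 ± 0.17 and Eif2s1, the gene for eIF2alpha itself, -0.06 ± 0.10, with a list median of -0.04 and 0 under 0.05. Among 8 other RNA helicases proposed as sensors the median was -0.03 and 0 were under 0.05. Ddx3x (131 FPKM) and Ddx1 (117 FPKM) were the highest, with -0.03 ± 0.07 and 0.01 ± 0.07, and Ddx60 (0.12 ± 0.21) and Dhx36 (-0.09 ± 0.05) differed most.

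Interferon itself was hardly measured. Ifnb1 had a mean of 0.0346 FPKM and was at 0 in 11 of 18 tumors, and Ifna2, Ifna4 and Ifna5 were at 0 in all 18. The 10 tested genes of the receptor and its JAK-STAT pathway had a median of 0.05 for RNA against no RNA and 0 under 0.05. Irf1, a transcription factor, stood at a mean of 19.4 FPKM with -0.01 ± 0.23, while Usp18 (0.33 ± 0.27) and Socs1 (0.10 ± 0.18), both brakes on the pathway, differed most. The 20 interferon-stimulated targets had a median of 0.11, with 18 higher and 0 under 0.05. Ifitm3 (263 FPKM, 0.21 ± 0.16) and Bst2 (235 FPKM, 0.18 ± 0.17) were the highest, and Ifit3 (0.38 ± 0.27) and Ifi44 (0.24 ± 0.23) differed most.

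For carried RNA against Free PS473 the same list had a median of 0.86, with 19 of 20 higher and 15 under an unadjusted p of 0.05, all 15 higher, beside the 6.44% of all genes and a median of -0.04 over them. Ifitm3 had 1.28 ± 0.21 (unadjusted p = 2.50e-05, adjusted p = 0.309 in the limma fit), the lowest adjusted p of that contrast, and Irf7 had 1.59 ± 0.42. The JAK-STAT list had a median of 0.58 with 6 of 10 under 0.05, whereas the downstream kinases had 0.04 and the PKR and ADAR partners -0.15. For PS473@NKMOF-101-[Mn] against PBS the interferon-stimulated list had a median of 0.50, with 19 of 20 higher and 2 under 0.05 (Ifit2 and Ifit3), beside 2.10% of all genes. M5@NKMOF-101-[Mn] against PBS gave 0.42, with 19 of 20 higher and 0 under 0.05 (1.51% of genes). PS473@CPs against PBS gave 0.32, with 18 of 20 higher and 2 under 0.05 (2.09%). The empty framework against PBS gave 0.07, with 16 of 20 higher and 1 under 0.05 (1.46%). Free PS473 against PBS gave -0.46, with 1 of 20 higher and 1 under 0.05 (Ifitm3), beside 1.81% of genes. These contrasts share tumors with those of the members and do not stand as separate evidence.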

How the data were processed

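Poly(A) RNA was sequenced from 18 tumors, 3 in each of 6 groups taken from their records, and the deposited values are FPKM per gene, normalized by the authors for gene length and library size. The submitters' processing notes name the genome build GRCm39. The aligner and counter are not given in the sources used here. Fragments per tumor were recovered from the steps between low values. Only 47.3% to 51.4% of values per tumor came out as whole fragments (tolerance 0.01), so no count model was used. The 12357 genes whose mean reached 1 FPKM entered a limma 3.58.1 fit of log2(FPKM + 1) in R 4.3.3 (1 mean per group, trend in the prior variance) with Benjamini-Hochberg adjustment over all genes in each contrast. The intervals are 95% intervals of that fit. The fit was tested on simulated data with independent noise for each gene. Genes of these tumors vary together, so that test does not give the error rate here. Python 3.11.15 served for the rest. List scores are means of log2(FPKM + 1).

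The members and lists were chosen with earlier results of these data known. Genes were named by a rule: all members, the 5 genes closest in Pearson r to each, and in each list any called gene, the 2 highest in mean and the 2 with the largest difference for RNA against no RNA. Other named genes (Cd274, Chuk, Ifit2, markers, interferons, receptors under the filter, and Irf7 and Ifitm3 for carried RNA) were chosen after their values were seen. One gene that the rule names is not reported here. The alternatives were another pseudocount, filter, scaling or prior, a fit of the groups compared alone, a replicate block, other thresholds, and leaving out each tumor. The skin epithelium and leukocyte covariates were added after seeing the data. The sequences come from the study's supplementary text and from RefSeq on GRCm38.p6, and FPKM values were used by gene name only. The records of the PS473@NKMOF-101-[Mn] tumors give another framework number in their titles than in their treatment text.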

Additional observations from a re-analysis of the deposited data

Results flagged for a closer look

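Rigi lay on opposite sides of its controls with naked and with framework-borne PS473. Every Free PS473 tumor (2.45 to 4.01 FPKM) lay below every PBS tumor (4.14 to 4.29), and every PS473@NKMOF-101-[Mn] tumor (5.55 to 12.5) lay above every empty framework tumor (3.26 to 4.93). The naked difference was -0.38 ± 0.29 (unadjusted p = 0.205, adjusted p = 1.00 in the limma fit) and the framework difference 0.68 ± 0.29 (unadjusted p = 0.0324, adjusted p = 0.999), so neither passed the test alone. The difference of the differences was 1.06 ± 0.41 on the log2(FPKM + 1) scale. Its unadjusted p was 0.0201, beside 2.68% of all genes under 0.05, and its adjusted p was 1.00 in the limma fit, so it failed the correction over all genes. Rigi was flagged by the positions of these same tumors, so this p is not separate evidence. Leaving out 1 tumor at a time gave 0.73 to 1.25, with an unadjusted p under 0.05 in 16 of 18 limma fits. The 0.73 came without tumor 2 of PS473@NKMOF-101-[Mn], where the unadjusted p was 0.0601.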

How the results depend on the processing

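The call rule gave 0 members in all 13 contrasts under every pseudocount, filter, scaling, prior, covariate and left-out tumor tried. With an unadjusted p at any fold as the rule it gave 4 members for PS473@NKMOF-101-[Mn] against PBS, 1 for the same group against the empty framework, 6 for carried RNA against Free PS473 and 2 for the interaction. Over all genes that rule gave 157 for RNA against no RNA. Against PBS it gave 224 for Free PS473, 258 for PS473@CPs, 187 for M5@NKMOF-101-[Mn], 260 for PS473@NKMOF-101-[Mn] and 181 for the empty framework. Against the empty framework it gave 380, 211, 379 and 284 in the same order of groups. It gave 73 for active against inactive RNA, 796 for carried RNA and 331 for the interaction. PS473@CPs against PBS gave 1 called gene, no member, when fitted alone, and 0 to 1 when a tumor was left out.

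The count of members under an unadjusted p of 0.05 depended more on the setting. Without a filter, or with a filter of 0.1 FPKM, Tlr7 was also fitted, so that 10 members were tested in place of 9. With the filter of 0.1 FPKM, Tlr7 was the member counted for Free PS473 and for PS473@CPs against the empty framework. It was also the member counted for the empty framework against PBS. The cause of the other changes was not tested. Each count is followed by the share of all genes under 0.05 in that fit. For RNA against no RNA it was 1 with quantile normalization (2.05%) and 2 with the leukocyte covariate (1.32%). For Free PS473 against PBS it was 2 (Rigi and Trim25) with the groups fitted alone (1.76%). M5@NKMOF-101-[Mn] against PBS gave 1 with a pseudocount of 0.1 (1.48%), upper-quartile scaling (1.68%) or the skin covariate (3.06%), 2 with quantile normalization (2.39%) and 4 with the groups fitted alone (3.88%). PS473@NKMOF-101-[Mn] against PBS gave 1 with the groups fitted alone (1.33%) and 5 with quantile normalization (3.03%). Against the empty framework, Free PS473 gave 1 without a filter (4.48%), with a filter of 0.1 FPKM (3.96%), fitted alone (3.83%, here Tlr3) or with the leukocyte covariate (4.27%). PS473@CPs gave 1 without a filter (2.45%), with that filter (2.10%) or with that covariate (4.94%). M5@NKMOF-101-[Mn] gave 2 with quantile normalization (3.02%) and 3 fitted alone (8.77%). PS473@NKMOF-101-[Mn] gave 4 with quantile normalization (2.28%), 2 with upper-quartile scaling (2.23%) or the skin covariate (2.51%), 0 fitted alone (3.40%) and 5 with the leukocyte covariate (1.71%). The empty framework against PBS gave 1 without a filter (2.71%), with a filter of 0.1 FPKM (2.11%) or with the leukocyte covariate (5.51%). Carried RNA against Free PS473 gave 5 fitted alone (5.24%) or with the skin covariate (6.85%), and 4 with the leukocyte covariate (8.77%). The interaction gave 1 without a filter (2.89%), with that filter (2.80%), fitted alone (2.20%) or with the skin covariate (4.36%), 3 with upper-quartile scaling (2.46%), 4 with quantile normalization (2.42%) and 5 with the leukocyte covariate (3.34%).

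Leaving out 1 tumor at a time gave 0 to 3 members for M5@NKMOF-101-[Mn] and 0 to 6 for PS473@NKMOF-101-[Mn] against PBS. Against the empty framework it gave 0 to 2 for Free PS473, 0 to 2 for M5@NKMOF-101-[Mn] and 0 to 5 for PS473@NKMOF-101-[Mn]. It gave 0 to 1 for active against inactive RNA, 2 to 7 for carried RNA and 0 to 7 for the interaction. Of 117 fitted member differences, 61 changed sign in at least 1 setting, none of them among those under an unadjusted p of 0.05. With 3 tumors a group and 14 to 127 fragments for Tlr7, small differences were not detectable.

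With the tumor number as a replicate block the interaction gave 1 member (2.29% of all genes), PS473@NKMOF-101-[Mn] against PBS 3 (1.81%) and carried RNA 5 (5.95%), and the block changed no call. Same-numbered tumors had a median correlation of -0.02 in their deviations from the group means, against -0.01 for other pairs. The correlations ran from -0.73 to 0.72 for same-numbered pairs, and 6 of 18 tumors correlated best with their own number. Whether same-numbered tumors shared a cage or day is not recorded, and these values cannot decide it.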
